A study of Ovis aries with 9 samples.

Results

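The transcripts described here are the abundant noncoding RefSeq transcripts of sheep genes that have only a locus number as a name, measured by RNA sequencing of hypothalamus tissue around puberty. They were selected on their measured levels: a row had to carry a noncoding RefSeq identifier (XR or NR) and a gene symbol that starts with LOC, its gene could own no protein-coding transcript, and its value had to be at least 5 FPKM (a fragment count scaled to transcript length and sequencing depth) in each of 8 of the 9 libraries. Puberty 2, the second puberty library, was not used by the selection. The selection gave 33 rows from 33 genes, out of 9544 noncoding LOC rows at any level and 115108 rows in all. Of the 9544 rows, 100 reached 5 FPKM in at least 1 of the 8 libraries. Since the level chose the rows, their abundance is given as a description with no test.

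The tissue came from 9 Dolang sheep, with 3 animals each at prepuberty (120 to 121 days old), puberty (130 to 131 days) and postpuberty (150 to 151 days), and 1 library per animal. The labels name no transgene, drug or hormone for any group, and every library was whole tissue, so that fewer cells of a type and less RNA per cell cannot be told apart. The study asks how noncoding RNA differs in the hypothalamus over these stages.

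Long noncoding RNAs are long transcripts that do not encode a protein. Some act on the gene next to them, some bind proteins or other RNAs, and for most no function is known. Many are made in 1 kind of cell, and in brain tissue, which mixes neurons with oligodendrocytes (myelin-forming cells), astrocytes (support cells) and microglia (resident immune cells), the level of such a transcript can move with the amount of its cell type.

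Mapped reads ranged from 19347227 to 23966519 per library, with the fewest in Puberty 2. Puberty 2 stood apart from the rest: 42441 rows were above 0 there, against 67824 to 71787 in the other 8 libraries, and its FPKM summed to 599726, against 359588 to 398109. The stage comparisons that use it are therefore given with and without it. Of 20 genes that mark hypothalamic neurons, 9 were under 1 FPKM in every library. GNRH1, the gonadotropin-releasing hormone gene, was listed at 0 in every library. Only SST, TRH and NPY had a median of at least 5 FPKM over the 8 libraries. Single libraries were higher, with SST up to 107 FPKM, CRH at 118 FPKM in Prepuberty 1 and POMC at 22.4 FPKM in Puberty 2. By their medians, the labelled tissue is weakly marked by these genes.

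Only part of the rows were lncRNAs. RefSeq gives 22 of the 33 the biotype lncRNA, 6 rRNA, 4 transcribed pseudogene and 1 (LOC101119038) misc_RNA. The lncRNA list of the study (1589 transcripts) contained the 22 and none of the other 11. At a threshold of 4, 6 or 10 FPKM the same rule gave 38, 31 or 22 rows, and 29 rows reached 5 FPKM in all 9 libraries. Just inside the threshold were LOC105603793, LOC114115312 and LOC105609220, whose lowest values over the 8 libraries were 5.24, 5.80 and 6.13 FPKM. Just outside were LOC105603076, LOC132657336 and LOC132659780, with lowest values of 4.77, 4.73 and 4.19 FPKM. Of the 33 genes, 26 have 1 transcript, and 5 lie on sequence not placed on a chromosome.

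**Figure D1:**
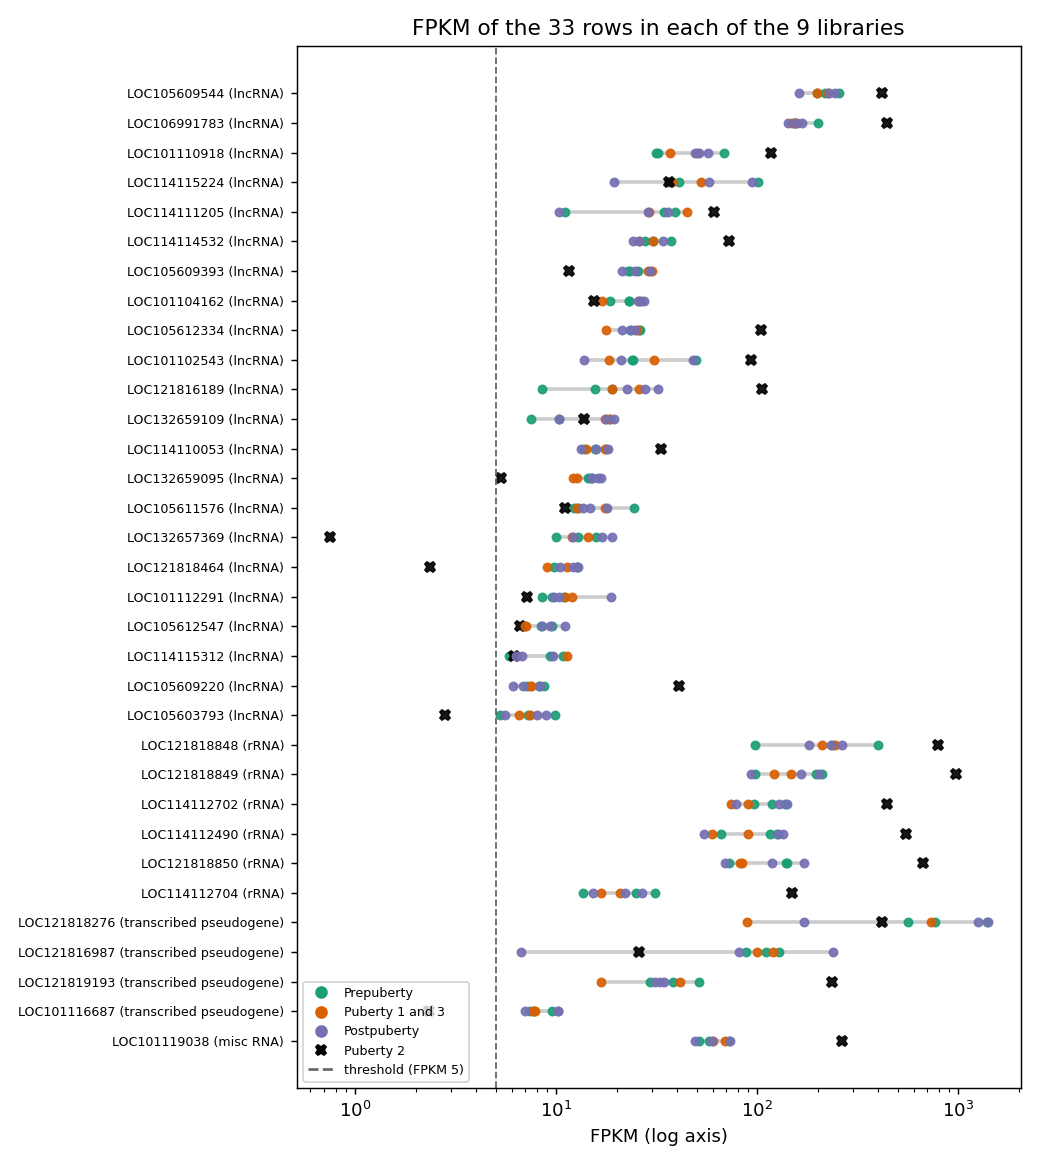
Each line is 1 of the 33 rows, ordered by RefSeq biotype and by median, and each symbol is its FPKM in 1 of the 9 libraries (log axis), coloured by stage, with a cross for Puberty 2 and a grey bar for the range of the other 8. In 18 rows the cross lies above the range of the other 8 libraries and in 10 rows below it, while the stages intermix in most rows.

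Summed over the 33 rows, the level was 2658, 2378 and 3058 FPKM in prepuberty, 1624, 6130 and 2386 FPKM in puberty and 1498, 3081 and 3494 FPKM in postpuberty. The highest sum was that of Puberty 2, in which the rows made up 1.02% of all FPKM. The median row had a median level of 24.3 FPKM over the 8 libraries, beside 17.2 FPKM for the 4418 mRNA rows that pass the same threshold. Over the 8 libraries the median row varied 1.95-fold between its lowest and highest library, beside 1.70-fold for those mRNA rows and 1.95-fold for 587 assembled transcripts without a RefSeq name at the same threshold.

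The median lncRNA row varied 1.76-fold between its lowest and highest of the 8 libraries, beside 2.38-fold for the rRNA rows and 9.43-fold for the pseudogene rows. LOC105609544 (chr13:77373960-77376645 in ARS-UI_Ramb_v3.0, 568 bp from ZNFX1, which encodes an antiviral RNA helicase) had the highest level among them. It measured 218, 257 and 198 FPKM in prepuberty, 224, 419 and 198 FPKM in puberty and 162, 245 and 226 FPKM in postpuberty. Apart from Puberty 2, its libraries spanned 1.58-fold and the stages overlapped. LOC106991783 (chr19:51448969-51450943) came next, with 201, 154 and 152 FPKM in prepuberty, 148, 443 and 159 FPKM in puberty and 143, 155 and 168 FPKM in postpuberty. It spanned 1.40-fold over the 8 libraries, and its lowest library lay above the highest of every lncRNA row that follows it in order, apart from Puberty 2. LOC101110918 (chr3:2808613-2812343) measured 31.2, 68.1 and 31.9 FPKM in prepuberty, 36.8, 117 and 50.3 FPKM in puberty and 49.2, 56.8 and 51.6 FPKM in postpuberty. The lowest and highest of its 8 libraries were both prepuberty libraries. These values are those of 1 of the 2 transcripts of the gene (XR_001036058.4), with 82.0% of the median level of the gene. LOC114110053, with a median of 15.6 FPKM, had the narrowest range of all 33 rows, 1.35-fold. This row is 1 of the 4 transcripts of its gene, with 74.8% of the median level of the gene. LOC114115224 had the widest among the 22 lncRNA rows, 5.24-fold, and LOC114111205 the next widest, 4.30-fold. The remaining lncRNA rows had medians from 7.36 FPKM (LOC105603793) to 29.0 FPKM (LOC114114532). From LOC101110918 down, the range of each row over the 8 libraries overlapped that of the next row in order.

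Ribosomal RNA forms the body of the ribosome and comes from many near-identical gene copies, so reads can be split between the rows and each single rRNA row is uncertain. The libraries were made from RNA selected for poly(A) tails, which mature rRNA lacks, so the FPKM of these rows is that of the rRNA left after selection and not its amount in the tissue. The table holds 23 rRNA rows, and the 6 selected ones divide by gene length into 2 short rows (1854 and 1867 bases, LOC114112702 and LOC121818848) and 4 long rows (4811 to 4884 bases). Of the 6, 4 lie together on chromosome 2, within chr2:250055577-250136056, and LOC114112702 and LOC114112704 are unplaced. The 4 long rows (LOC121818849, LOC114112490, LOC121818850 and LOC114112704) summed to 231 to 535 FPKM over the 8 libraries and to 2342 FPKM in Puberty 2. The 2 short rows summed to 216 to 538 FPKM and to 1234 FPKM in Puberty 2. The long rows moved together over the 8 libraries, with Pearson's r from 0.88 to 0.97 over their 6 pairs, as a description with no test. The short row LOC114112702 moved with them too, with r from 0.71 to 0.93, whereas LOC121818848 had r from −0.19 to 0.25 with the other 5 rRNA rows. LOC121818848, the highest of the rRNA rows, measured 400, 237 and 97.2 FPKM in prepuberty, 210, 790 and 245 FPKM in puberty and 182, 264 and 233 FPKM in postpuberty. Its lowest library had the highest summed level of the long rows among the prepuberty libraries. LOC114112489, a short rRNA row that was not selected, ranged from 0.018 to 493 FPKM over the same 8 libraries.

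The transcribed pseudogenes, copies of genes that lost their coding function but are still transcribed, held the most variable rows. LOC121818276 (chrX:59769971-59779301) had the highest median of all 33 rows, 750 FPKM. It measured 563, 769 and 1392 FPKM in prepuberty, 88.7, 417 and 732 FPKM in puberty and 172, 1259 and 1400 FPKM in postpuberty. Its 8 libraries spanned 15.8-fold, and Puberty 1 and Postpuberty 1 were the lowest of them. LOC121816987 (chr1:222014175-222016580) measured 111, 88.4 and 128 FPKM in prepuberty, 119, 25.8 and 99.8 FPKM in puberty and 6.69, 81.0 and 238 FPKM in postpuberty. Its lowest and highest libraries were both postpuberty libraries, 35.6-fold apart, the widest range of the 33 rows. A pseudogene can share reads with the gene it was copied from, so these levels are uncertain too. LOC121819193 had a median of 33.7 FPKM and LOC101116687 one of 7.79 FPKM. The misc_RNA row LOC101119038 was steady over the 8 libraries, with 48.9 to 73.2 FPKM, but reached 264 FPKM in Puberty 2, 4.39 times their median.

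Puberty 2 differed from the other 8 libraries in both directions. Of the 33 rows, 18 were above all 8 other libraries in Puberty 2, 10 were below all of them and 5 lay within their range. All 6 rRNA rows were above, from 3.36 to 6.96 times the median of the other 8. The 22 lncRNA rows were divided, with 10 above, 9 below and 3 within, and a median ratio of 0.78. These counts are in FPKM, which summed higher in Puberty 2. As shares of summed FPKM, LOC105609544 (0.698 per mille, beside 0.713 in Prepuberty 2) and LOC114111205 (0.102, beside 0.117 in Puberty 1) were not above. LOC114115312 was below as a share (0.0103 per mille, beside 0.0146 in Prepuberty 1) and within in FPKM. The median ratio over the 33 rows was 1.94, beside 0.82 for the 4418 mRNA rows at the same threshold, of which 33.3% were above the range, 45.4% below it and 11.5% listed at 0. After upper quartile scaling, an alternative chosen after seeing the data, the median ratio was 1.23 for the 33 rows and 0.52 for the mRNA rows. None of the 33 rows was at 0 in Puberty 2. This compares 1 library with 8 and has no test.

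The highest ratios in Puberty 2 were those of LOC121819193 (237 FPKM, 7.03 times the median of the others), the rRNA rows LOC114112704 (6.96 times), LOC121818850 (6.58 times) and LOC121818849 (6.24 times), and the lncRNA LOC105609220 (40.7 FPKM, 5.42 times). The lowest was that of LOC132657369, which was at 0.748 FPKM in Puberty 2 and between 9.98 and 18.9 FPKM in the other 8 libraries, a ratio of 0.055. LOC121818464 (2.37 FPKM, ratio 0.20), LOC121816987 (ratio 0.24), LOC101116687 (2.34 FPKM, ratio 0.30) and LOC132659095 (5.29 FPKM, ratio 0.35) came next. Of these 5 rows LOC121816987 alone had another library, Postpuberty 1, below its Puberty 2 level.

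**Figure D2:**
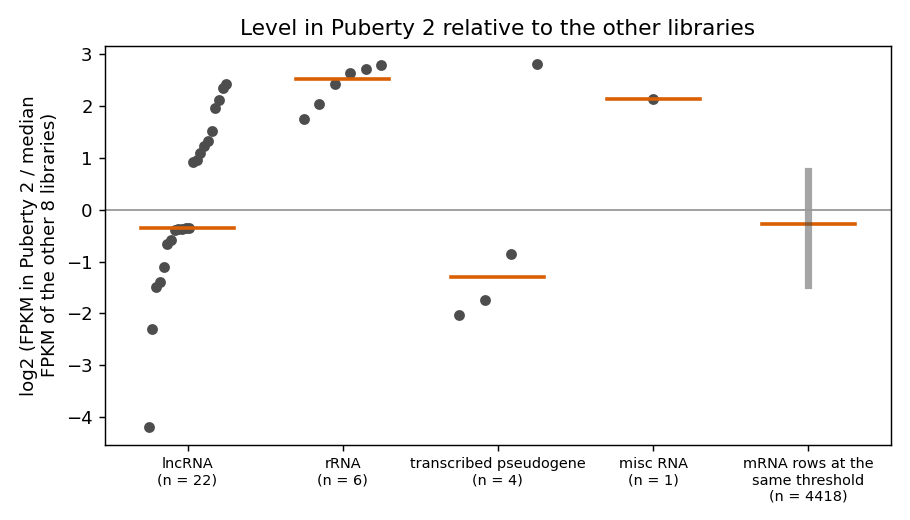
Each point is 1 row, placed by the log2 ratio of its FPKM in Puberty 2 to its median in the other 8 libraries, with an orange line at the median of each biotype, and the mRNA rows at the same threshold are drawn as a median with the range of their middle 50%. The 6 rRNA points all lie above 0, the 22 lncRNA points lie on both sides, and the lowest point is LOC132657369.

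The first stage comparison asks which rows differ between prepuberty and puberty. Tested with limma on log2(FPKM + 1) over 47002 rows, with a call at an adjusted p below 0.05 and a log2 fold change of at least 1 in either direction, 1 row of the whole table was called (0.00213%) and 0 of the 33. A fold change on this scale understates that of low rows. At an unadjusted p below 0.05 there was 1 of the 33, beside 3.21% of all rows, and the smallest limma adjusted p among them was 0.81. Without Puberty 2 there was none of the 33, beside 3.33%, with a smallest limma adjusted p of 1. The row at an unadjusted p below 0.05 was LOC121816189 (chr13:56579346-56580862, inside PHACTR3, a regulator of protein phosphatase 1 and actin). It measured 19.0, 8.46 and 15.7 FPKM in prepuberty, 25.9, 106 and 18.9 FPKM in puberty and 32.0, 27.7 and 22.6 FPKM in postpuberty. Prepuberty 1 lay just above Puberty 3, so the libraries of the first 2 stages overlapped. The log2 fold change of prepuberty over puberty was −1.39 ± 0.60 (SE) with 3 libraries a stage and −0.66 without Puberty 2.

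LOC132659095, which is on unplaced sequence, was the only row whose prepuberty libraries all lay above its puberty libraries. It measured 15.1, 14.8 and 14.5 FPKM in prepuberty, 12.2, 5.29 and 12.7 FPKM in puberty and 16.2, 15.1 and 16.7 FPKM in postpuberty. These values are those of 1 of the 7 transcripts of the gene, with 79.7% of its median level. The puberty libraries were the lowest 3 of the 9, with a log2 fold change of 0.60 ± 0.37 (SE) for prepuberty over puberty and 0.23 without Puberty 2. Its limma adjusted p was 0.81 for that comparison. LOC121818276, whose values are given above, had the second smallest p, with a log2 fold change of 1.49 ± 0.91 (SE), 1.72 without Puberty 2, and overlapping libraries. Complete separation in this direction was seen in 4.31% of all rows, and in the opposite direction, where none of the 33 separated, in 3.41%.

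Without Puberty 2, 2 of the 33 rows lay wholly higher in prepuberty (LOC132659095 and the rRNA row LOC114112702) and 2 wholly lower (LOC105609393 and LOC101112291), beside 6.49% and 9.4% of all 44575 rows then tested. The median log2 fold change of the 33 rows, −0.29 with all libraries beside 0.08 over all rows, became 0.08 beside −0.02. With all libraries it was −0.07 after upper quartile scaling and −0.05 after quantile normalization. Of the 33 rows, 16 changed the sign of their difference when Puberty 2 was left out, including LOC114112702, from −0.30 to 0.51.

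The second comparison sets puberty against postpuberty. Here limma called none of the 47002 rows (0%) and so none of the 33, with none of the 33 at an unadjusted p below 0.05, beside 3.46% of all rows, and a smallest limma adjusted p of 0.77. Without Puberty 2 there was again none of the 33, beside 3.42%, with a smallest limma adjusted p of 1. LOC132659095 had the smallest p, lower in puberty by a log2 fold change of −0.70 ± 0.37 (SE), and −0.34 without Puberty 2, with no overlap between the stages. LOC105612547 was the other row with no overlap: it measured 7.10, 6.59 and 7.0 FPKM in puberty and 9.35, 11.1 and 8.54 FPKM in postpuberty, a log2 fold change of −0.43 ± 0.31 (SE), and −0.40 without Puberty 2. These 2 rows stand beside 5.61% of all rows that were wholly lower in puberty, and 0 of the 33 stand beside 2.94% that were wholly higher.

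LOC132657369, inside TTYH2, a gene of the tweety membrane protein family, measured 14.4, 0.748 and 12 FPKM in puberty and 18.9, 17.0 and 12.1 FPKM in postpuberty. Its log2 fold change was −1.24 ± 0.73 (SE) and fell in size to −0.24 without Puberty 2. LOC121818464 went from −0.77 to −0.20 in the same way. Without Puberty 2 the same 2 rows, LOC132659095 and LOC105612547, were wholly lower in puberty, beside 8.42% of all rows, and none was wholly higher, beside 8.23%. The median over the 33 rows went from 0.35 to −0.09, and 12 of the 33 changed sign. Over all rows the median was −0.12 with all libraries and 0.00 after quantile normalization, where the median of the 33 rows was 0.11, or 0.19 after upper quartile scaling.

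The third comparison, prepuberty against postpuberty, has no library from puberty in its means. Limma called 1 of the 47002 rows (0.00213%) and 0 of the 33, with none of the 33 at an unadjusted p below 0.05, beside 1.87% of all rows, and 1 of the 33 without Puberty 2, beside 3.39%. In 2 rows every prepuberty library was lower than every postpuberty library, beside 4.36% of all rows, and none wholly higher, beside 2.73%. LOC121816189 was 1 of them, with a log2 fold change of −0.94 ± 0.60 (SE) and an unadjusted p of 0.15, or 0.017 once Puberty 2 no longer entered the estimate of the spread (limma adjusted p of 1 in both). LOC101104162 was the other, with 18.5, 23.0 and 23.1 FPKM in prepuberty and 26.3, 25.5 and 27.5 FPKM in postpuberty, a log2 fold change of −0.29 ± 0.32 (SE). LOC121816987 (1.03 ± 1.07) and LOC132659109 (−0.40 ± 0.41) had the next smallest p-values after LOC121816189 and overlapping libraries. Without Postpuberty 1 the sign of LOC121816987 turned, to −0.36, and that of LOC132659109 turned when FPKM was summed per gene. The median log2 fold change of the 33 rows was 0.01 beside −0.03 over all rows.

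The 3 comparisons share libraries, so each row's changes in them are not independent. With 3 libraries a stage, the smallest two-sided p of an exact permutation test would be 0.10. The counts of separated rows also moved when any of several single libraries was left out, to between 1 and 7, as did the share of all rows that separated, to between 6.99% and 20.8%.

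**Figure D3:**
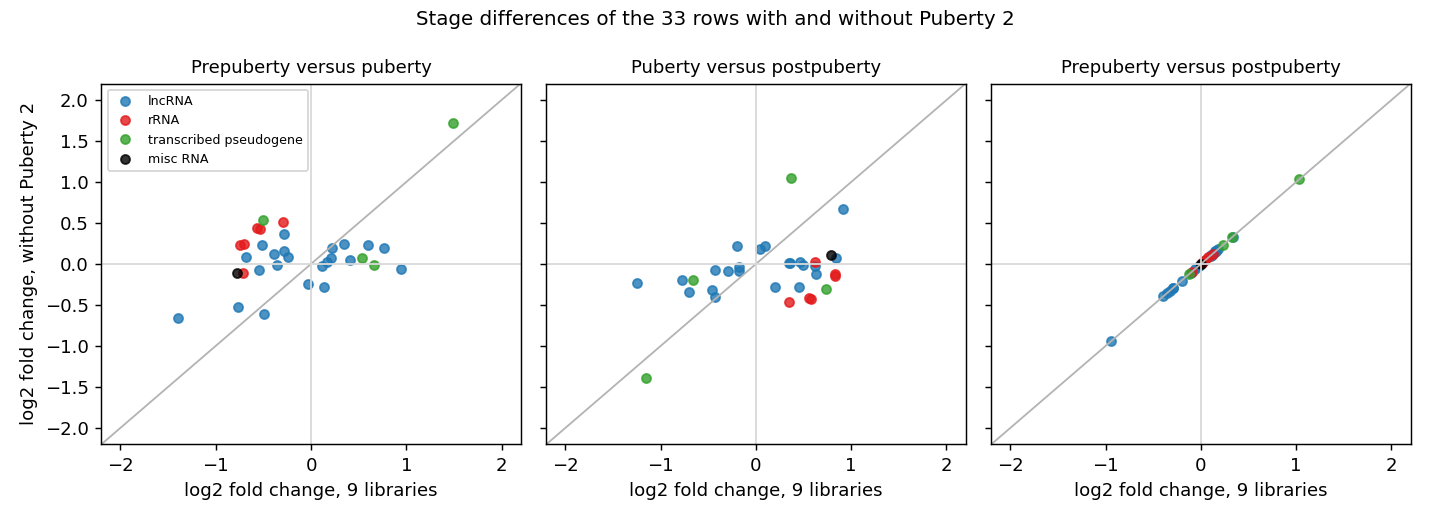
Each point is 1 of the 33 rows, with its log2 fold change (on log2(FPKM + 1), first stage over second) from all 9 libraries on the horizontal axis and without Puberty 2 on the vertical axis, coloured by biotype. The points of the comparisons that use puberty leave the grey line of equal values, with 16 and 12 of 33 changing sign, and those of prepuberty versus postpuberty lie on it.

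Next, the rows were compared with marker genes of 4 brain cell types. The score of a cell type is the mean log2(FPKM + 1) of its markers in a library, and each row was correlated with each score over the 8 libraries other than Puberty 2. The 132 relations were tested with exact two-sided permutation tests and adjusted together by the Benjamini-Hochberg method. A row was said to follow a cell type at r of at least 0.7 and an adjusted p below 0.05. A single row met this for microglia and none for neurons, oligodendrocytes or astrocytes. The unadjusted permutation p for Pearson's r was below 0.05 for 4 of the 33 rows with neurons, 4 with oligodendrocytes, 1 with astrocytes and 2 with microglia, beside 12.2%, 13.3%, 4.26% and 11.6% of 46782 rows of the table.

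LOC114115224 (chr1:37382021-37394935, a lncRNA with 1 transcript, 20927 bp from PATJ, a gene for a cell polarity protein) followed the microglia markers. It measured 101, 36.3 and 40.6 FPKM in prepuberty, 37.8, 36.4 and 52.5 FPKM in puberty and 57.7, 19.3 and 93.8 FPKM in postpuberty. Prepuberty 1 and Postpuberty 3 were the highest and Postpuberty 2 the lowest, so each of these 2 stages held high and low libraries. The microglia score reached 5.38, 3.94 and 4.25 in the prepuberty libraries, 3.87, 4.33 and 4.34 in those of puberty and 4.47, 3.44 and 5.14 in those of postpuberty, with the same highest 2 libraries and the same lowest one. Over the 8 libraries Pearson's r was 0.98 (exact permutation p = 4.96e-05, adjusted p = 0.0065), and Spearman's rho was 0.98 (exact permutation p = 0.00040, adjusted p = 0.052). Without Postpuberty 2 and Prepuberty 1, the libraries farthest from the median score, r was 0.98. Within stages, with the stage means subtracted, r was 0.99, where the exact permutation p of 0.014 is the smallest that this design allows. With all 9 libraries r was 0.96. When 1 of the 8 libraries was left out, r stayed between 0.97 and 0.99, while its adjusted p by the exact permutation test lay between 0.026 and 0.18 and was above 0.05 without Prepuberty 1, Prepuberty 3, Puberty 3 or any 1 of the postpuberty libraries.

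The single microglia genes gave the same picture with 2 exceptions. Of the 12, 10 had an r of at least 0.7 with LOC114115224, as a description over the same 8 libraries. The highest was TREM2, a microglial lipid receptor, at 0.98, and TYROBP, its signalling partner, had 0.96. The complement genes C1QA, C1QB and C1QC had 0.88, 0.94 and 0.84. P2RY12, a receptor of resting microglia, had 0.40 and TMEM119 had 0.42, so the row did not move with every marker of the list. Whether it moved with microglia or with other immune cells was not tested. Among the microglia genes the highest median was that of CSF1R, the receptor for colony stimulating factor 1, at 43.4 FPKM, and ITGAM, an integrin subunit, had one of 7.58 FPKM.

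Among 6452 named protein-coding genes with a median of at least 5 FPKM over the 8 libraries, those most like LOC114115224 in pattern were FLI1 (r = 0.99 over 8 libraries), NFKB1 (0.99), ADCY7 (0.99), LAT2 (0.98), CTSS (0.98) and TREM2 (0.98). FLI1 and NFKB1 are transcription factors, ADCY7 is an adenylyl cyclase, LAT2 an adaptor protein of immune cells and CTSS the protease cathepsin S. CTSS had 93.9, 25.2 and 28.2 FPKM in prepuberty, 22.5, 14.3 and 37.2 FPKM in puberty and 30.5, 10.3 and 84.7 FPKM in postpuberty, again highest in Prepuberty 1 and Postpuberty 3. Of the 6452 genes, 135 (2.09%) had an r of at least 0.9 with the row and 31 (0.48%) at least 0.95. The microglia list was not the only one to differ between libraries: the choroid plexus score was 4.47 in Puberty 3 and at most 2.29 elsewhere, and its part in these relations was not tested.

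LOC106991783 had the next highest r with microglia, 0.72 (exact permutation p = 0.036, adjusted p = 0.53, rho 0.48 with p = 0.24 and adjusted p = 0.75), and 0.62 without the 2 farthest libraries. Together with LOC114115224 this made 2 of 33 rows at r of at least 0.7, beside 6.86% of 46782 rows of the table. LOC105609220 (0.67) and LOC121819193 (0.59) completed the 4 highest, and neither passed the test. With all 9 libraries r was 0.18 for LOC106991783, 0.10 for LOC105609220 and 0.23 for LOC121819193.

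With the neuron markers 4 rows had an r of at least 0.7, beside 6.61% of all rows, and 1 had an r of at most −0.7, beside 6.31%. The neuron score reached 5.35, 6.83 and 6.33 in the prepuberty libraries, 6.49, 5.0 and 6.19 in those of puberty and 4.93, 6.62 and 6.60 in those of postpuberty, so among the 8 libraries Postpuberty 1 and Prepuberty 1 stood below the other 6. LOC114111205 (chrX:6087708-6102725, 1 of the 3 transcripts of its gene, with 82.8% of its median level) measured 11, 39.1 and 34.4 FPKM in prepuberty, 44.6, 61.2 and 28.9 FPKM in puberty and 10.4, 36.0 and 28.7 FPKM in postpuberty. Its lowest 2 libraries were the 2 with low neuron scores. Its r was 0.95 (exact permutation p = 0.0063, adjusted p = 0.42, rho 0.74 with p = 0.046 and adjusted p = 0.38) and 0.42 without those 2 libraries, on which the relation therefore rests. In Puberty 2, with a neuron score nearly as low as in Postpuberty 1, it was at its highest FPKM, and r over all 9 libraries was 0.45. As a share of the summed FPKM of each library it was not highest there, at 0.102 per mille beside 0.117 in Puberty 1.

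LOC105609544 had an r of 0.79 with the neuron markers (exact permutation p = 0.019, adjusted p = 0.50) and a rho of 0.93 (exact permutation p = 0.0022, adjusted p = 0.098). It behaved the other way when Postpuberty 1 and Prepuberty 1 were left out, with r rising to 0.96 over the other 6 libraries. Without Prepuberty 1 alone r was 0.93, with an adjusted p of 0.026 by the exact permutation test. Adding Puberty 2, where its FPKM was highest, gave an r of −0.11. As a share of the summed FPKM it was 0.698 per mille in Puberty 2, beside 0.713 in Prepuberty 2. The pseudogene LOC101116687 had an r of 0.76 (exact permutation p = 0.027, adjusted p = 0.50), a rho of 0.93 (exact permutation p = 0.0022, adjusted p = 0.098), 0.78 without the 2 libraries and 0.72 with all 9, so it kept its direction in Puberty 2, where both it and the neuron score were low. LOC121816987 had an r of 0.71 (exact permutation p = 0.071, adjusted p = 0.53, rho 0.12 with p = 0.79 and adjusted p = 0.90) that fell to −0.08 without the 2 libraries. LOC101112291, on the X chromosome, ran opposite to the neuron score, with an r of −0.78 (exact permutation p = 0.026, adjusted p = 0.50, rho −0.64 with p = 0.096 and adjusted p = 0.53) and −0.33 without the 2 libraries.

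None of the 33 rows had an r of at least 0.7 with the oligodendrocyte markers, beside 4.82% of all rows, and 5 had an r of at most −0.7, beside 8.96%. The oligodendrocyte score was 8.31 in both Prepuberty 1 and Postpuberty 1, which had the lowest neuron scores among the 8 libraries, and between 7.58 and 8.16 in the others. The 5 rows were LOC105611576 (r = −0.80), LOC114111205 (−0.78), LOC105609544 (−0.74), LOC101110918 (−0.73) and LOC101116687 (−0.70), and the smallest adjusted p among them by the exact permutation test was 0.50. In the same order, r was −0.62, −0.73, −0.34, −0.86 and −0.56 without Postpuberty 1 and Prepuberty 2. It was −0.66, −0.74, −0.47, −0.55 and −0.14 with all 9 libraries. Of these 5 rows, 3 are among the 4 rows above 0.7 with neurons. Over the 8 libraries the r between the neuron and oligodendrocyte scores was −0.85. For these 3 rows relations to neurons and to oligodendrocytes cannot be told apart. With neurons LOC101110918 had an r of 0.39 and LOC105611576 one of 0.60, both below 0.7. The highest r with oligodendrocytes were those of LOC132657369 (0.58), LOC114115224 (0.53), LOC121816189 (0.51) and LOC101112291 (0.45). Without the 2 libraries farthest from the median score, Postpuberty 1 and Prepuberty 2, these were −0.13, 0.57, −0.65 and −0.30, so 3 of the 4 turned negative. With stage means subtracted over the 8 libraries they were 0.64, 0.53, 0.88 and 0.54, so all stayed positive.

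The astrocyte score hardly varied, from 7.06 to 7.51 over the 8 libraries, but its genes did not move together. GFAP was at 6624 FPKM in Prepuberty 1 and 2348 FPKM in Prepuberty 2, while ALDOC was at 168 and 817 FPKM. A flat score can therefore hide changes of single markers, and the rows were not compared with single astrocyte genes. None of the 33 rows had an r of at least 0.7 with the score, beside 1.83% of all rows, and only LOC121818276 had one of at most −0.7, at −0.72 (exact permutation p = 0.045, adjusted p = 0.53, rho −0.67 with p = 0.083 and adjusted p = 0.48, and −0.52 without the 2 farthest libraries), beside 3.48%. LOC132657369 (0.50), LOC132659109 (0.40), LOC101112291 (0.33) and LOC105612334 (0.31) had the highest r, with adjusted p from 0.68 to 0.71 by the exact permutation test. With all 9 libraries these were 0.70, 0.33, 0.55 and −0.55, so the sign of LOC105612334 turned.

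**Figure D4:**
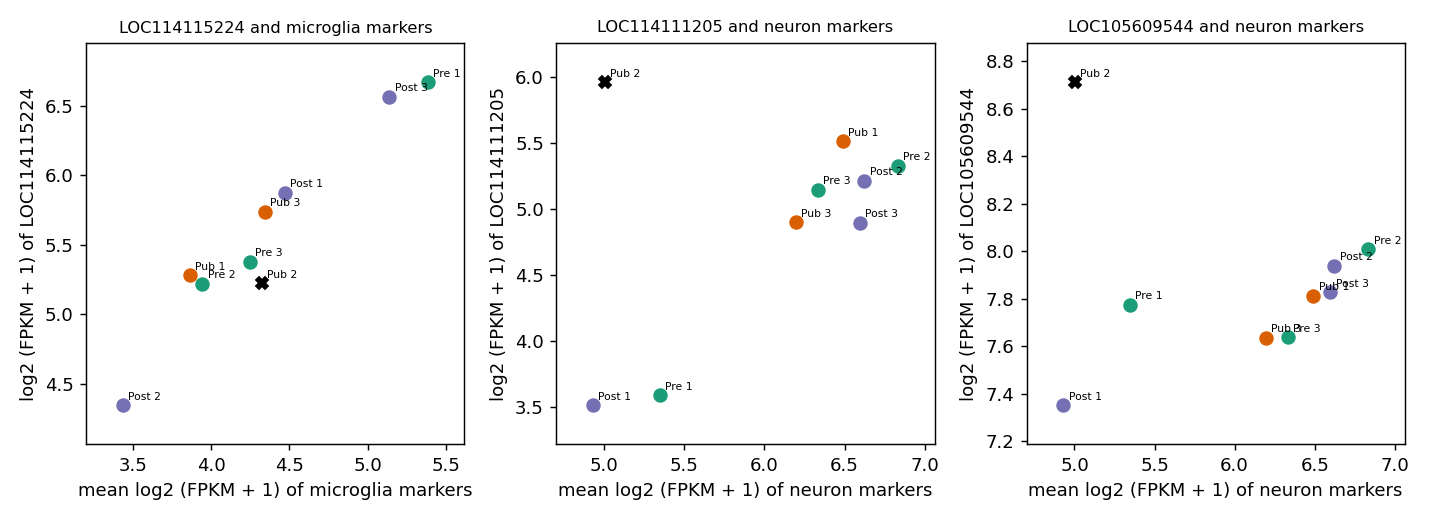
Each point is 1 library, named by stage and number, with the mean log2(FPKM + 1) of the marker genes on the horizontal axis and the log2(FPKM + 1) of 1 row on the vertical axis, and a cross for Puberty 2. LOC114115224 rises with the microglia score over the whole range, LOC114111205 is low only in the 2 libraries with low neuron scores, and Puberty 2, with a low neuron score, has the highest FPKM of LOC114111205 and LOC105609544, though not the highest share of summed FPKM.

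The nearest protein-coding gene was then sought for each row. Of the 28 rows on a chromosome, 24 had a protein-coding gene within 100 kb and 11 within 1 kb. The 11 were all lncRNAs, out of 19 placed lncRNA rows, and over all RefSeq lncRNA genes 2784 of 5417 (51.4%) lie that close. The closest without overlap were LOC105611576, 118 bp from ATP13A2, which encodes a lysosomal polyamine transporter, and LOC106991783, 119 bp from CCDC51, a gene for a mitochondrial protein. LOC105609393 lies 172 bp from PPP1R15B, which encodes a regulatory subunit of the phosphatase of a translation initiation factor, and LOC114110053 lies 193 bp from SLC3A2, the heavy chain of amino acid transporters. LOC105609220 is 288 bp from UBE2F, a neddylation enzyme gene, and LOC105612334 is 353 bp from C3H2orf49. LOC121816189 and LOC132657369 overlap PHACTR3 and TTYH2, and since the use of strand in the quantification is not given in the sources used here, reads of the 2 overlapping genes may not have been told apart. LOC121818276, LOC121816987, LOC101119038 and LOC101112291 had no coding gene within 100 kb. The nearest to LOC121816987 was BCHE, for butyrylcholinesterase, at 153415 bp, the nearest to LOC101119038 was DLX6, a homeobox gene, at 310266 bp, and the nearest to LOC101112291 was CHIC1 at 135738 bp.

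In 18 of the 24 pairs the noncoding row had a higher median FPKM than the summed transcripts of its neighbour, as its selection on a high level favours. None of the 24 pairs passed the exact permutation test of Pearson's r over the 8 libraries after adjustment over the 24, while 2 passed when Postpuberty 1 was left out and 3 when Puberty 2 was added. LOC101110918 and DIPK1B, a gene for a kinase-like protein 888 bp away, had the highest r, 0.85 (exact permutation p = 0.0082, adjusted p = 0.13), with a rho of 0.93 (p = 0.0022, adjusted p = 0.054) and an r of 0.81 without the 2 farthest libraries. In Puberty 2 the FPKM of both was raised, LOC101110918 to 2.35 times and DIPK1B to 2.29 times the median of the other 8. The FPKM of that library also summed highest, to 599726 against 359588 to 398109, and the neighbours were not compared as shares of it. LOC132657369 and TTYH2 had an r of 0.80 (exact permutation p = 0.011, adjusted p = 0.13, rho 0.79 with p = 0.028 and adjusted p = 0.17) that fell to 0.33 without the 2 farthest libraries. In FPKM this pair parted in Puberty 2, where LOC132657369 was at 0.055 and TTYH2 at 1.89 times the median of the others. The most negative was LOC121819193 with ETNK1, which encodes ethanolamine kinase, at −0.73 (exact permutation p = 0.038, adjusted p = 0.31, rho −0.81 with p = 0.022 and adjusted p = 0.17), and −0.73 without the 2 farthest. For the 4 rows that lie within 200 bp of a neighbour without overlapping it the r was 0.69 (LOC105611576 and ATP13A2), 0.13 (LOC106991783 and CCDC51), 0.11 (LOC105609393 and PPP1R15B) and −0.67 (LOC114110053 and SLC3A2), so the closest pairs had r of both signs.

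**Figure D5:**
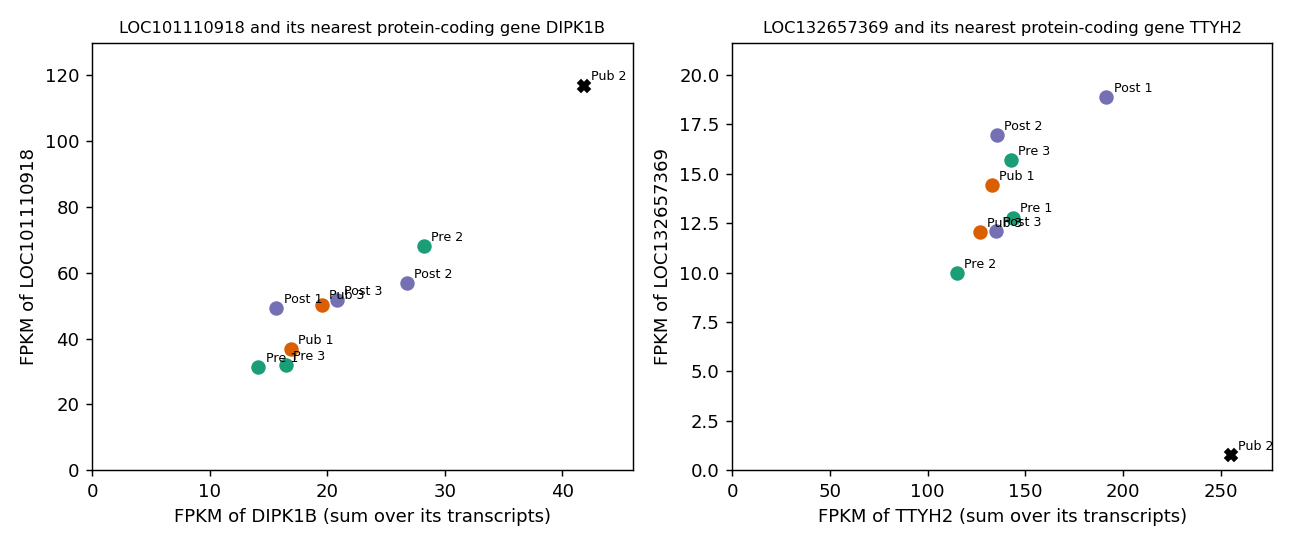
Each point is 1 library, with the FPKM of the nearest protein-coding gene (summed over its transcripts) on the horizontal axis and that of the noncoding row on the vertical axis, both from 0, and a cross for Puberty 2. In FPKM, LOC101110918 and DIPK1B are both highest in Puberty 2, while LOC132657369 is lowest in the library in which TTYH2 is highest. That library, Puberty 2, also has the highest summed FPKM, for which the axes are not adjusted.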

How the data were processed

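RNA from 9 hypothalamus samples (3 per stage) was sequenced after selection of polyadenylated RNA on oligo-dT beads, so transcripts without a poly(A) tail are counted only as far as they came through that step. The authors trimmed the reads with Trimmomatic (0.32 in the submitters' processing notes), aligned them with HISAT2 and quantified merged transcripts with StringTie. Per transcript, the deposited table gives FPKM, although the labels call the table raw counts, so a count test was not used. FPKM values hold no read counts per row, so the depth behind single values is unknown beyond the mapped reads per library that the study lists. The replicate numbers do not pair animals.

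Row identifiers were matched to RefSeq gene records of ARS-UI_Ramb_v3.0, the assembly used in the study (89672 of 89674 RefSeq rows matched). The strand of genes is not in those records, so the planned naming of rows next to oppositely oriented genes was replaced by the nearest gene. The members and lists were chosen with earlier results of these data known. The 47002 rows that averaged 0.5 FPKM or more in any stage were tested on log2(FPKM + 1) with limma 3.58.1 in R 4.3.3 (all 9 libraries in 1 fit, variance trend, Benjamini-Hochberg adjustment over all rows). Correlations and their exact permutations over 8 libraries were computed with numpy 2.4.6, and ranks with scipy 1.17.1. The statistics were tested on simulated data.

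Named rows were the 12 with the highest medians, the 3 with the smallest p per comparison, the 4 with the highest r per marker list, those nearest the threshold or a coding gene, and the 5 highest and 5 lowest in Puberty 2. Alternatives were other filters, scalings and pseudocounts (0.1), gene sums, a replicate block and leaving out each library.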

Additional observations from a re-analysis of the deposited data

How the results depend on the processing

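No row of the 33 was called between stages under any alternative, with smallest limma adjusted p-values from 0.50 to 1. A replicate block, tried although same-numbered libraries did not deviate together (r from −0.13 to 0.23 between same-numbered libraries), gave 0 called rows in each comparison. Rows without overlap between stages numbered 1 to 6 (prepuberty versus puberty), 2 to 7 (puberty versus postpuberty) and 2 to 5 (prepuberty versus postpuberty) when 1 library was left out, beside 7.67% to 19.1%, 8.54% to 20.8% and 6.99% to 18% of all rows tested, since overlap is less likely by construction where 2 libraries face 3. The counts were 5, 4, 4 and 6 without Prepuberty 1, Prepuberty 2, Puberty 2 and Puberty 3 in the first comparison, 5, 6, 5, 7 and 5 without Puberty 1, Puberty 3, Postpuberty 1, Postpuberty 2 and Postpuberty 3 in the second, and 5, 5, 5, 4 and 5 without Prepuberty 1, Prepuberty 2, Postpuberty 1, Postpuberty 2 and Postpuberty 3 in the third.

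The count of rows following microglia was 0 with stage means subtracted and 0 to 1 when 1 library was left out (0 without Prepuberty 1, Prepuberty 3, Puberty 3 and each postpuberty library), although r of LOC114115224 stayed between 0.96 and 0.99 under every alternative and fewer libraries raise the smallest p that permutation can give. That for neurons was 0 to 1, with LOC105609544 passing without Prepuberty 1. With all 9 libraries 3 neighbour pairs passed, and with 1 library left out 0 to 2, the 2 being without Postpuberty 1. The median ratio in Puberty 2 was 0.78 over the lncRNA rows alone and 1.23 after upper quartile scaling, 2 alternatives chosen after seeing the data.

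Signs turned for LOC121816987 between prepuberty and postpuberty (−0.36 without Postpuberty 1, up to 2.12 without Postpuberty 3), LOC132659109 in the same comparison (0.083 with gene sums), LOC105609544 with neurons (−0.11 with all 9 libraries), LOC121816189 with oligodendrocytes (−0.077 without Prepuberty 2, up to 0.66 without Postpuberty 2), LOC101112291 with oligodendrocytes (−0.018 without Postpuberty 1, up to 0.66 without Prepuberty 3) and LOC105612334 with astrocytes (−0.55 with all 9 libraries), and the cause was not tested. Without the 2 libraries farthest from the median score, signs also turned with oligodendrocytes for LOC132657369 (−0.13), LOC121816189 (−0.65) and LOC101112291 (−0.30). With neurons, LOC121816987 turned in the same way (−0.08).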
